A study of Homo sapiens with 2 samples.

Results

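Collagen chain genes were examined by RNA-Seq in the human ovarian cancer line A1847, which has a high CARM1 level. CARM1 is an enzyme that methylates arginines of histones and other proteins. The members were all protein-coding genes whose symbol is COL, a number, A and a number, and 44 of the 57736 genes in the deposited table met this rule. They were grouped by the structure of the protein into 11 fibrillar chains, 9 network-forming chains, 10 FACIT chains (fibril-associated collagens with interrupted helices), 4 transmembrane chains and 10 other chains. Parental control cells, labelled CARM1 wild type, were compared with cells labelled CARM1 knockout (CARM1 KO), which had received a lentiviral CRISPR vector with a guide RNA against CARM1. Cells of both groups were A1847 grown in RPMI medium with fetal bovine serum, and neither label gives a drug treatment. The study describes the CARM1 KO cells as a clone, so differences that follow from CARM1 loss and differences between a clone and its parental population cannot be told apart.

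Each group held 1 library, so no difference has a replicate check and no p-value was computed. The parental library held 30741953 reads and the CARM1 KO library 32300391 reads. Differences are given as folds after TMM scaling, a method that removes the overall shift between libraries, each with an exact binomial 95% interval, which covers only the error of counting. A gene was tested if it had at least 10 reads in both libraries together. It was called if it differed more than 3-fold and its interval excluded no difference. CARM1, the target of the knockout, had 975 reads in parental and 380 reads in the CARM1 KO library, which was 2.63-fold lower (95% interval 2.33 to 2.97). The epithelial keratin genes KRT8 and KRT18 were abundant in both libraries, with 17600 and 21154 reads in parental and 70370 and 51223 reads in the CARM1 KO library. EPCAM, an epithelial adhesion molecule, rose from 249 to 848 reads, and PAX8, a transcription factor of Müllerian epithelium, from 311 to 1149 reads.

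Collagens are secreted or membrane proteins in which 3 chains wind into a helix. Fibrillar chains are cut by proteases outside the cell and assemble into cross-linked fibrils, which dominate the stroma of connective tissue. Type IV chains form the sheet of basement membranes on which epithelial cells rest, and FACIT chains bind the surface of fibrils. Each collagen type is built mainly from its own set of chains, so the levels of partner chains bear on which trimers a cell can make.

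Collagen transcripts were less abundant and differently composed in CARM1 KO cells. All 44 chains together had 68694 reads in parental and 20169 reads in the CARM1 KO library, which was 3.49-fold lower (95% interval 3.43 to 3.54). A few abundant fibrillar chains, COL1A2, COL3A1, COL5A2 and COL11A1, carried this loss. They held 51736 reads, or 75.3% of collagen reads, in parental cells and 32 reads, or 0.159%, in CARM1 KO cells. These chains were singled out after their values were seen. The 40 other members had 16958 reads in parental and 20137 reads in the CARM1 KO library, a 1.16-fold higher level (95% interval 1.14 to 1.18). COL6A3 weighed heavily on this value, and the 39 members without it had 6316 and 18336 reads, a 2.84-fold higher level (95% interval 2.76 to 2.92).

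Of the 34 members tested, 10 were called higher and 12 were called lower in CARM1 KO cells. Among all 18563 genes tested, 12.4% were called higher and 11.2% were called lower, against 29.4% and 35.3% of the tested members. The median log2 fold change was 0.81 over the tested members and -0.03 over all genes tested, and setting libraries with fewer than 3 reads of a gene to 3 reads left both medians as they were. The filter uses the sum of both libraries, so a member expressed in 1 library only could pass through that library alone. The 10 members under the minimum were COL5A1, COL5A3, COL4A3, COL10A1, COL20A1, COL21A1, COL22A1, COL6A5, COL6A6 and COL28A1. Their reads ranged from 0 to 3 in parental and from 0 to 8 in the CARM1 KO library.

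**Figure D1:**
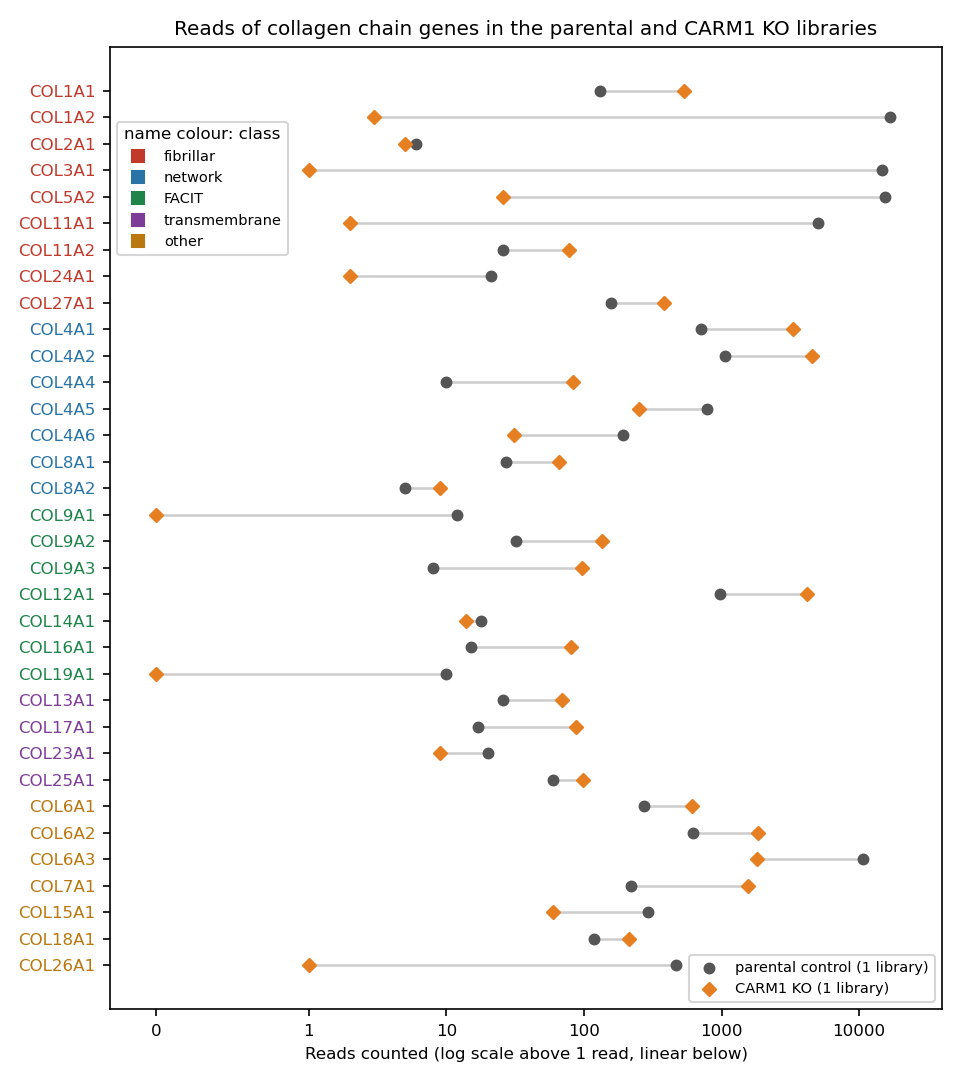
Reads counted for each of the 34 tested collagen chain genes (horizontal axis, log scale above 1 read) in the parental library (grey circles) and the CARM1 KO library (orange diamonds), with gene names coloured by class. COL1A2, COL3A1, COL5A2 and COL11A1 span from between 5051 and 16732 reads in parental to between 1 and 26 reads in the CARM1 KO library.

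Fibrillar collagens showed the deepest losses. Of 9 fibrillar chains tested, 5 were lower, 1 was higher and 3 were not called. COL3A1, the chain of type III collagen of elastic tissues, had 14587 reads in parental cells and 1 read in the CARM1 KO library, a 14935-fold fall (95% interval 2680 to 589940). COL1A2, the second chain of type I collagen, had 16732 reads in parental and 3 reads in the CARM1 KO library, a 5710-fold fall (95% interval 1954 to 27693). The size of both folds is set by the few reads left in CARM1 KO cells, as the width of the intervals shows. COL5A2, a chain of type V collagen, which sits inside type I fibrils, fell from 15366 to 26 reads, or 605-fold (95% interval 413 to 927). COL11A1, a chain of type XI collagen of cartilage fibrils, fell from 5051 to 2 reads, or 2586-fold (95% interval 715 to 21357). COL24A1, a minor fibrillar chain, had 21 reads in parental and 2 reads in the CARM1 KO library, a 10.8-fold fall (95% interval 2.63 to 94.6).

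The first chain of type I collagen went the other way. COL1A1 rose from 131 to 537 reads, or 4.0-fold (95% interval 3.30 to 4.88). COL11A2, the partner of COL11A1, had 26 reads in parental and 78 reads in the CARM1 KO library, a 2.93-fold difference (95% interval 1.86 to 4.76) under the threshold. COL27A1, a chain of thin fibrils, had 158 and 379 reads, a 2.34-fold difference (95% interval 1.94 to 2.84), and COL2A1 of cartilage had 6 and 5 reads. The 7 fibrillar chains apart from the abundant ones held together 343 reads in parental and 1010 reads in the CARM1 KO library.

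Most tested markers of fibroblasts, the usual source of fibrillar collagen, fell as the abundant fibrillar chains did, while COL1A1 rose. Of 6 fibroblast markers that are not collagens, 5 were tested, and 4 of these were lower, 0 were higher and 1 was not called. PDGFRA fell from 14326 to 2 reads and THY1 from 678 to 4 reads, and LUM and DCN had at most 61 reads in parental cells. PDGFRB had 132 and 142 reads, and FAP had 2 and 3. The summed level of these markers was 489 CPM (reads scaled to library size by TMM) in parental and 4.77 in the CARM1 KO library. PDGFRA alone made up 460 CPM of the parental sum, and PDGFRB 4.45 CPM of the CARM1 KO sum. In bulk RNA, fewer cells of a type and less RNA per cell cannot be told apart, and the part of other cells in these differences was not tested. Of 10 epithelial and ovarian carcinoma markers, 8 were tested, of which 6 were higher, 1 was lower and 1 was not called. The summed level of the list was 1412 CPM in parental and 4751 CPM in CARM1 KO cells, and KRT7, KRT8 and KRT18 made up most of both sums. KRT19 fell from 45 to 0 reads, and MUC16 had 0 reads and 1 read. CDH1, an epithelial cadherin, had only 3 reads in parental and 53 reads in the CARM1 KO library, and WT1 had 8 reads and 1 read. Of the endothelial markers, PECAM1 was not matched to the table, and CDH5, VWF, KDR and TEK had at most 10 reads in either library. Of the leukocyte markers reported here, CD68 rose from 400 to 1644 reads, while PTPRC had 6 and 0 reads and CD3E had 0 reads in both.

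**Figure D2:**
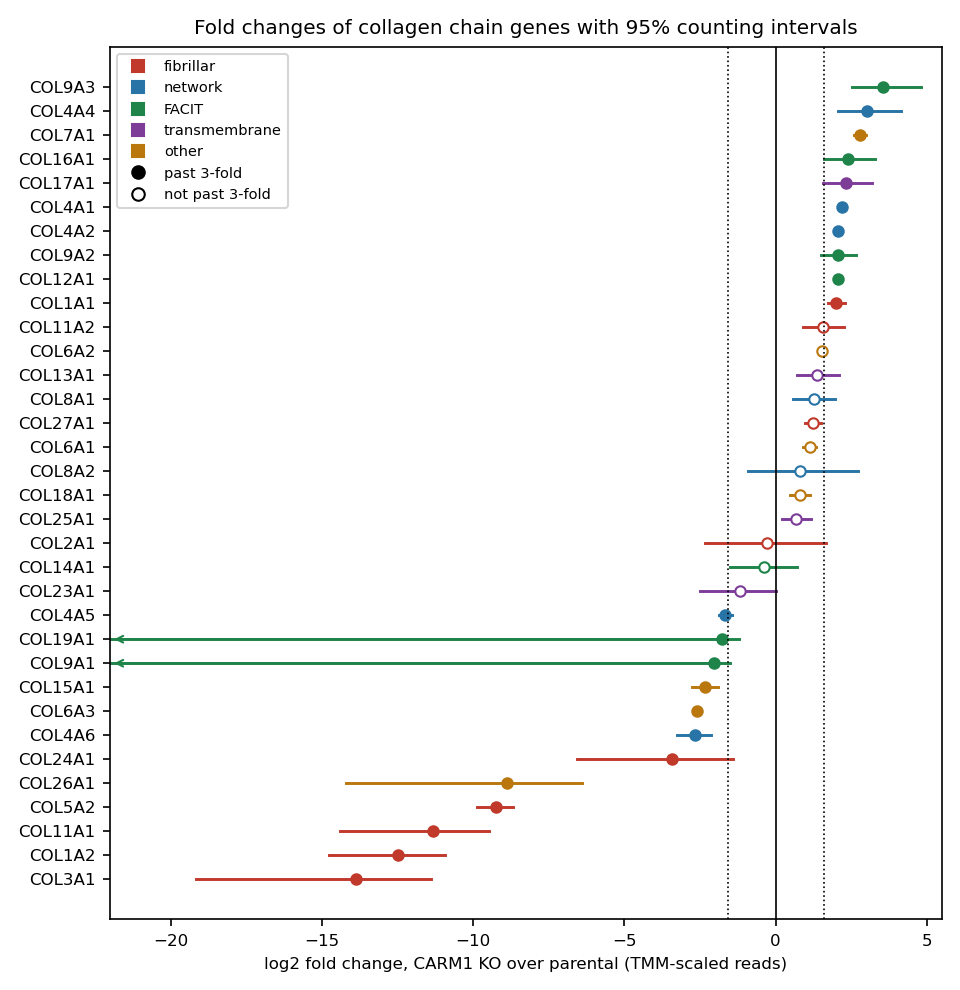
log2 fold change of CARM1 KO over parental (horizontal axis, TMM-scaled reads) for the 34 tested collagen chain genes, ordered by size, with bars for the exact 95% counting interval and colours for the class. Filled points were past 3-fold (dotted lines), arrows mark genes with 0 reads in the CARM1 KO library, and the 4 lowest points all belong to fibrillar chains.

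Type I collagen is normally a trimer of COL1A1 and COL1A2 chains, with COL1A1 in excess. In parental cells the COL1A2 level per kb of exon was 106 times that of COL1A1 (95% interval 89.6 to 127). In CARM1 KO cells the COL1A1 level per kb was 215 times that of COL1A2 (95% interval 73.1 to 1045). Neither library thus held both chains at similar levels. In type V collagen COL5A2 had a partner near 0 in both libraries, as COL5A1 had 0 reads in parental and 6 reads in the CARM1 KO library. A count of 0 allows up to 3 reads in the parental library. COL5A3, another type V chain, had 1 and 3 reads. Only type V chains were compared with COL5A2 here, so partners from other collagen types are not covered.

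Network-forming collagens changed in both directions: COL4A1 and COL4A2 both rose, and COL4A5 and COL4A6 both fell. Of 7 chains tested, 3 were higher, 2 were lower and 2 were not called. COL4A1 and COL4A2, which form the common basement membrane trimer, rose from 703 to 3315 reads and from 1063 to 4528 reads. These rises were 4.61-fold (95% interval 4.24 to 5.00) and 4.16-fold (95% interval 3.89 to 4.45). COL4A4, which assembles with COL4A3 and COL4A5 in kidney and lung basement membranes, rose from 10 to 83 reads, or 8.11-fold (95% interval 4.19 to 17.5). COL4A3, whose RefSeq start in GRCh38.p14 lies 418 bases from that of COL4A4, had 2 and 6 reads and was under the minimum. COL4A5 fell from 783 to 253 reads, or 3.17-fold (95% interval 2.75 to 3.67), and COL4A6 from 193 to 31 reads, or 6.37-fold (95% interval 4.35 to 9.64). COL8A1 of subendothelial matrix had 27 and 66 reads, a 2.39-fold difference (95% interval 1.5 to 3.89), while its partner COL8A2 had 5 and 9 reads. COL10A1 of hypertrophic cartilage had 0 reads in both.

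Type IV genes lie head to head, with each pair transcribed outward from a shared region. In GRCh37, COL4A1 lies on chromosome 13 from 110801310 to 110959504 on the minus strand and COL4A2 from 110958159 to 111165556 on the plus strand. The annotated genes overlap by 1346 bp, and because the use of strand in counting is not stated, reads within the overlap cannot be assigned with certainty. COL4A6 and COL4A5 lie on chromosome X from 107398837 to 107682727 and from 107683068 to 107940775, with 340 bp between them. The partners kept similar proportions where they rose. The COL4A2 level per kb was 1.15 times that of COL4A1 in parental (95% interval 1.04 to 1.27) and 1.04 times in CARM1 KO cells (95% interval 0.993 to 1.09). The COL4A5 level per kb was 3.17 times that of COL4A6 in parental (95% interval 2.71 to 3.73) and 6.38 times in CARM1 KO cells (95% interval 4.38 to 9.59), intervals that did not overlap.

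The regions at COL4A1 and COL4A2 and at COL4A5 and COL4A6 are shown because the partners share them while the pairs differ in direction. The window of COL11A1 is shown as an example of a deep fall. COL26A1, another deep fall, and the pair COL4A3 and COL4A4 also had windows, which are not shown. RefSeq windows in GRCh38.p14 were matched for 32 of the 44 members, some with several starts, which gave 44 windows. COL1A1, COL1A2, COL2A1, COL3A1, COL5A2, COL6A1, COL6A5, COL8A1, COL9A3, COL14A1, COL20A1 and COL22A1 were not matched. Capitals mark matches to the CCAAT motif, to the TATA box motif TATAAA and to the GC box motif GGGCGG. Each was searched on both strands, so some matches are printed as the reverse complement, and no matches overlapped one another in the windows shown. The COL4A1-COL4A2 sequence is the plus strand between the starts of both genes at chr13:110307158-110307283. The others are the bases upstream of the start on the strand of the gene, at chrX:108439588-108439837 for COL4A5, chrX:108439459-108439708 for COL4A6 and chr1:103108523-103108772 for COL11A1. For COL4A6 the window of a further start was not shown.
COL4A1-COL4A2: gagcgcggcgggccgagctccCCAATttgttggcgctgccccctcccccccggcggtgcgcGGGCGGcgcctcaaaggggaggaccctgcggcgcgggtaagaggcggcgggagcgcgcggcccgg
COL4A5: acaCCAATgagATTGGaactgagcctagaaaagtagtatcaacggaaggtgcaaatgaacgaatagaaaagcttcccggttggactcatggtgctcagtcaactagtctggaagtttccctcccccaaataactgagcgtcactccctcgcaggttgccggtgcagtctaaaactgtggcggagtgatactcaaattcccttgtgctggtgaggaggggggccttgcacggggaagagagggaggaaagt
COL4A6: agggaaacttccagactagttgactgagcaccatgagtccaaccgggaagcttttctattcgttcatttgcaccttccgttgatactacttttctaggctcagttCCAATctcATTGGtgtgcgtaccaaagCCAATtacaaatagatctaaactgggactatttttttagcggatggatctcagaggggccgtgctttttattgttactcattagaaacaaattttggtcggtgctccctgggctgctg
COL11A1: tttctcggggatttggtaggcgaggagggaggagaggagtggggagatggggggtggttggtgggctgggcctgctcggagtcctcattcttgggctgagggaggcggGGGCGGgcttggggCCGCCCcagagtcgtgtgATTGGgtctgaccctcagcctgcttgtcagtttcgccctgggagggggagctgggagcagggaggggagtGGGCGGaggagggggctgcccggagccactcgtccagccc

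The 126 bases between the starts of COL4A1 and COL4A2 were 80.2% G or C and held 20 CpG sites, with 1 CCAAT and 1 GGGCGG match. These are RefSeq starts in GRCh38.p14, whereas the GRCh37 gene models given above come from another annotation, in which the genes overlap. The windows shown for COL4A5 and COL4A6 were 51.2% and 44% G or C, with 8 and 7 CpG sites. They held 2 and 3 CCAAT matches and 0 GGGCGG matches. Part of these windows is the same stretch on opposite strands, so matches are shared between them. The window of the further COL4A6 start was 48.8% G or C, with 3 CpG sites. It held 0 CCAAT matches and 1 GGGCGG match, so the motifs of COL4A6 depend on the start taken. The COL11A1 window was 68.8% G or C and held 1 CCAAT and 3 GGGCGG matches. The COL26A1 window was 64.8% G or C and held 0 matches to any of these motifs. CCAAT was found in 32.0% of all 35116 promoter windows and in 12 of the 44 member windows. GGGCGG was found in 42.6% of all windows and in 24 of members, and TATAAA in 10.7% of all and in 8 of members.

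FACIT collagens were mostly higher. Of 7 tested, 4 were higher, 2 were lower and 1 was not called. COL12A1, which binds type I fibrils, rose from 980 to 4153 reads, or 4.14-fold (95% interval 3.86 to 4.44). The 9 other FACIT chains had at most 136 reads in a library. COL9A2 and COL9A3, chains of the type IX collagen on cartilage fibrils, rose from 32 to 136 reads, or 4.15-fold (95% interval 2.81 to 6.31), and from 8 to 97 reads, or 11.8-fold (95% interval 5.78 to 28.2). Their partner COL9A1 had 12 reads in parental and 0 reads in the CARM1 KO library, a level 4.10-fold lower with the 0 set to the 3 reads that it allows. With the counting error of the parental reads included, the 95% interval of this fall starts at 2.84-fold, under the threshold. COL19A1, the neighbour of COL9A1 on chromosome 6 with 3571 bp between the genes, had 10 reads and 0 reads, a 3.41-fold lower level set in the same way, with an interval that starts at 2.29-fold. COL16A1 rose from 15 to 81 reads, or 5.27-fold (95% interval 3.02 to 9.85), and COL14A1 had 18 and 14 reads. The spans of COL9A3 and COL19A1, introns included, overlap a gene on the opposite strand, TCFL5 by 155 bp and LMBRD1 by 681 bp. Whether exons are shared was not examined, so any effect on their reads is not known.

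Of the transmembrane collagens, which stay anchored in the plasma membrane, 1 was higher and 3 were not called. COL17A1, the hemidesmosome collagen of epithelia, rose from 17 to 88 reads, or 5.06-fold (95% interval 2.99 to 9.07). COL13A1 had 26 and 69 reads, a 2.59-fold difference (95% interval 1.63 to 4.24), and COL25A1 had 60 and 98 reads, a 1.60-fold difference (95% interval 1.15 to 2.24). COL23A1 had 20 and 9 reads, and its interval included no difference.

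Among the other chains, 1 of 7 tested was higher, 3 were lower and 3 were not called. COL7A1, which forms the anchoring fibrils beneath epithelia, rose from 220 to 1559 reads, or 6.92-fold (95% interval 6.01 to 8.01). COL15A1, a chain found near basement membranes, fell from 293 to 60 reads, or 5.00-fold (95% interval 3.78 to 6.72). COL26A1 had 463 reads in parental and 1 read in the CARM1 KO library, a 474-fold fall (95% interval 84.7 to 18764). COL18A1, the precursor of endostatin, had 119 and 212 reads, a 1.74-fold difference (95% interval 1.38 to 2.20). Its span, introns included, overlaps SLC19A1 on the opposite strand by 20149 bp. Whether exons are shared was not examined, so any effect on its reads is not known.

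The chains of type VI collagen, which builds beaded filaments around cells from COL6A1, COL6A2 and a further chain such as COL6A3, moved apart. COL6A3 fell from 10642 to 1801 reads, or 6.05-fold (95% interval 5.75 to 6.36). COL6A1 had 274 reads in parental and 611 reads in the CARM1 KO library, a 2.18-fold difference (95% interval 1.89 to 2.52). COL6A2 had 615 and 1836 reads, a 2.92-fold difference (95% interval 2.66 to 3.20) just under the threshold. Per kb of exon, the COL6A3 level was 9.99 times that of COL6A1 in parental cells (95% interval 8.86 to 11.3) and 0.758 times in CARM1 KO cells (95% interval 0.692 to 0.833). The latter ratio was 1.18 when lengths of the longest coding transcript were used, so its order is not settled. COL6A3 was 4.29 times COL6A2 per kb in parental cells (95% interval 3.95 to 4.66), and COL6A2 was 4.11 times COL6A3 in the CARM1 KO library (95% interval 3.85 to 4.39).

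The order of levels per kb changed accordingly. In parental cells COL3A1 was the highest chain at 69.3 RPKM (reads scaled to library size by TMM and to kb of exon), followed by COL5A2 at 67.4, COL1A2 at 49.7, COL11A1 at 17.8 and COL6A3 at 15.9. In CARM1 KO cells COL6A2 was the highest at 10.8 RPKM, followed by COL4A2 at 7.37, COL4A1 at 7.09, COL12A1 at 6.91 and COL7A1 at 4.39. In CARM1 KO cells COL4A2 and COL4A1 did not differ beyond counting error on this scale. The order depends on the length used: with the longest coding transcript, an alternative chosen after seeing the data, COL1A2 came first at 106 RPKM and COL3A1 second at 85.3 RPKM in parental cells. In CARM1 KO cells COL4A2 then came first at 22.03 RPKM, COL6A2 second at 16.7 RPKM and COL4A1 next at 15.9 RPKM. Fibrillar chains made up 84.6% of collagen reads per kb in parental and 6.33% in CARM1 KO cells. Network chains made up 2.58% and 30.7%, FACIT chains 0.886% and 17.3%, transmembrane chains 0.214% and 1.95%, and the other chains 11.7% and 43.7%. Without division by length, the class with the largest share in CARM1 KO cells was network, at 41.1% against 30.2% for the other chains.

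**Figure D3:**
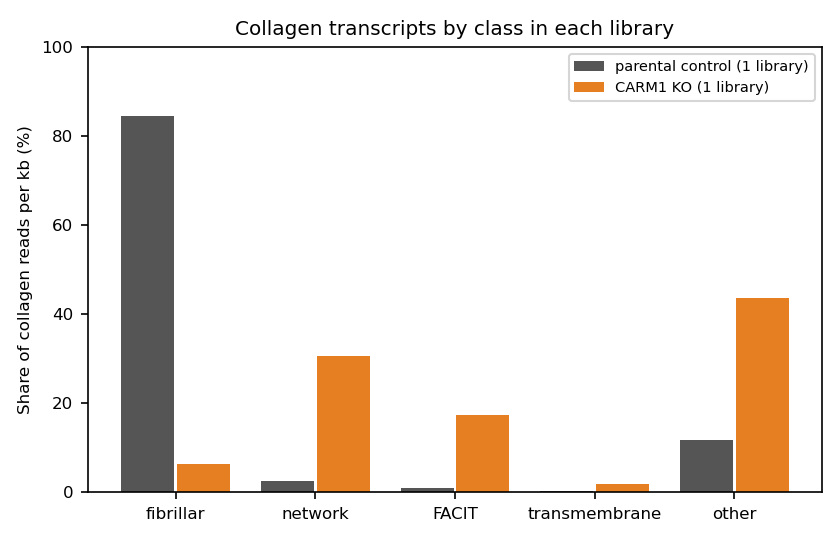
Share of collagen reads per kb of exon (vertical axis, percent) taken by each collagen class in the parental library (grey) and the CARM1 KO library (orange), with 1 library per bar. The fibrillar share goes from 84.6% to 6.33% and the network share from 2.58% to 30.7%.

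The genes beside the members were compared at 9 loci, with the 3 nearest protein-coding genes with at least 10 reads taken on each side. Of these 54 neighbours 13.0% were higher and 14.8% were lower, beside 12.4% and 11.2% of all genes tested. COL18A1, itself a member, is among them as a neighbour of COL6A1 and COL6A2 and was not called. COL3A1 and COL5A2 lie end to end on chromosome 2 with 19151 bp between them, and in GRCh37 they span 189839099 to 189877472 and 189896624 to 190090038. Of their 6 neighbours 3 were lower and 0 were higher. CALCRL fell from 386 to 14 reads, TFPI from 3528 to 202 reads and SLC40A1 from 324 to 0 reads. They are not adjacent, as CALCRL, TFPI and SLC40A1 lie 1526, 1409 and 335 kb from the pair. WDR75 had 8737 and 3603 reads, GULP1 2508 and 885, and ASNSD1 2787 and 2690. COL1A2 lies on chromosome 7 from 94024207 to 94060539, where CASD1 and PEG10 on one side fell from 3562 to 713 reads and from 25234 to 5641 reads. SGCE, which lies between CASD1 and PEG10, had 639 reads in parental and 1710 in the CARM1 KO library. None of the 3 neighbours on the other side, TFPI2, GNG11 and BET1, was called.

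COL11A1 lies on chromosome 1 from 103342023 to 103574428. Of its neighbours OLFM3 fell from 70 reads to 1 read, while S1PR1 rose from 239 to 1260 reads and AMY2B from 38 to 125 reads. OLFM3, S1PR1 and AMY2B lie 880, 1633 and 522 kb from COL11A1. AMY2B belongs to a family of near-identical amylase genes, so its reads are uncertain. Of the neighbours of COL4A1 and COL4A2, MYO16 rose from 30 to 176 reads and IRS2 from 122 to 615 reads, and 4 were not called. For COL4A5 and COL4A6, 0 of 6 neighbours were called, and for COL12A1 only CD109 was, which rose from 248 to 1812 reads. Beside COL26A1, CLDN15 fell from 57 to 13 reads and the other 5 neighbours were not called. Beside COL4A3 and COL4A4, DOCK10 rose from 56 to 379 reads and IRS1 fell from 1080 to 363 reads, and beside COL6A1 and COL6A2, PCBP3 rose from 0 to 10 reads. DNA copy number was not measured, and its part in these differences was not tested.

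**Figure D4:**
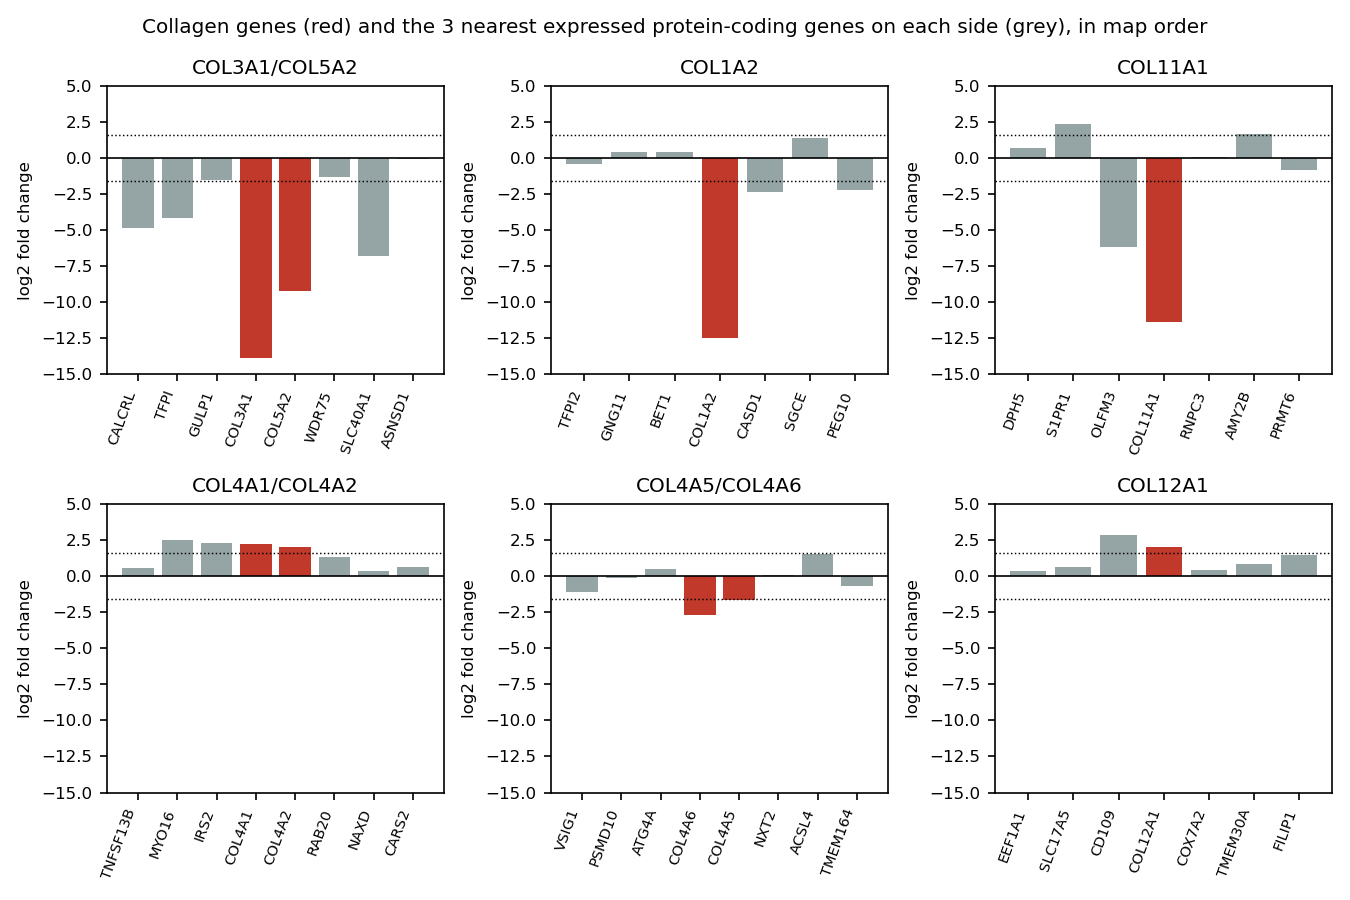
log2 fold change of CARM1 KO over parental (vertical axis) of collagen genes (red) and of the 3 nearest protein-coding genes with at least 10 reads on each side (grey), in map order, for 6 loci, with dotted lines at 3-fold. As drawn, COL1A2, COL11A1, COL3A1 and COL5A2 stand below every neighbour at their loci. The lowest neighbour of COL11A1 was OLFM3 at -6.16, and that of COL3A1 and COL5A2 was SLC40A1 at -6.79. SLC40A1 had 0 reads in the CARM1 KO library and its bar was drawn with 3 reads.

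Genes of the lists for collagen modification, export, cleavage, cross-linking, binding and sensing were counted against the 12.4% higher and 11.2% lower of all genes tested. Of 15 genes for prolyl and lysyl modification, 3 were higher, 1 was lower and 11 were not called. The prolyl 4-hydroxylase subunits P4HA1 and P4HB, which stabilise the helix, had 6023 and 8814 reads in parental and 5320 and 6834 reads in the CARM1 KO library. P4HA3, a minor catalytic subunit, rose from 9 to 95 reads, and the prolyl 3-hydroxylase P3H2 from 100 to 380 reads. PLOD2, the lysyl hydroxylase of telopeptides, rose from 2249 to 9579 reads, or 4.16-fold (95% interval 3.97 to 4.36), whereas PLOD1 had 2484 and 1521 reads and PLOD3 had 422 and 628. The galactosyltransferase COLGALT2 fell from 1356 to 105 reads, or 13.2-fold (95% interval 10.8 to 16.3). None of 11 genes for folding and export was called, and SERPINH1, the collagen chaperone HSP47, had 5099 and 2444 reads, a 2.14-fold lower level (95% interval 2.04 to 2.24).

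Genes that act outside the cell moved in both directions. Of 7 tested genes for propeptide cleavage, 2 were higher and 2 were lower. PCOLCE, an enhancer of C-propeptide cleavage, fell from 1187 to 93 reads, or 13.1-fold (95% interval 10.6 to 16.3), and PCOLCE2 from 491 to 161 reads, or 3.12-fold (95% interval 2.61 to 3.75). The N-propeptidase ADAMTS2 rose from 18 to 139 reads and the protease TLL1 from 1 to 22 reads, or 21.5-fold (95% interval 3.47 to 887). Of 5 cross-linking enzymes, LOX, a lysyl oxidase, rose from 52 to 829 reads, or 15.6-fold (95% interval 11.8 to 21.0), and LOXL4 fell from 58 to 19 reads, while the other 3 were not called. Of 4 tested fibril-binding proteoglycans, LUM fell from 61 reads to 1 read, or 62.5-fold (95% interval 10.8 to 2507), and DCN from 24 to 0 reads, with a 95% interval that starts at 6.16-fold. BGN rose from 25 to 150 reads and PRELP from 1 to 12 reads, or 11.7-fold (95% interval 1.73 to 501).

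Of 8 tested collagen receptors, 3 were lower and 0 were higher. DDR2, a receptor tyrosine kinase for fibrillar collagen, fell from 7477 to 121 reads, or 63.3-fold (95% interval 52.9 to 76.4). DDR1, its relative in epithelial cells, had 602 and 359 reads, a 1.72-fold lower level (95% interval 1.5 to 1.96). ITGA1, an integrin subunit that binds collagen, fell from 2775 to 498 reads, or 5.71-fold (95% interval 5.18 to 6.29), and LAIR1, an inhibitory receptor of leukocytes, from 359 to 71 reads. ITGB1, the partner of ITGA1, had 63012 and 43374 reads. Over the 50 tested genes of these lists, 8 were higher, 9 were lower and 33 were not called, and their median log2 fold change was -0.39.

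**Figure D5:**
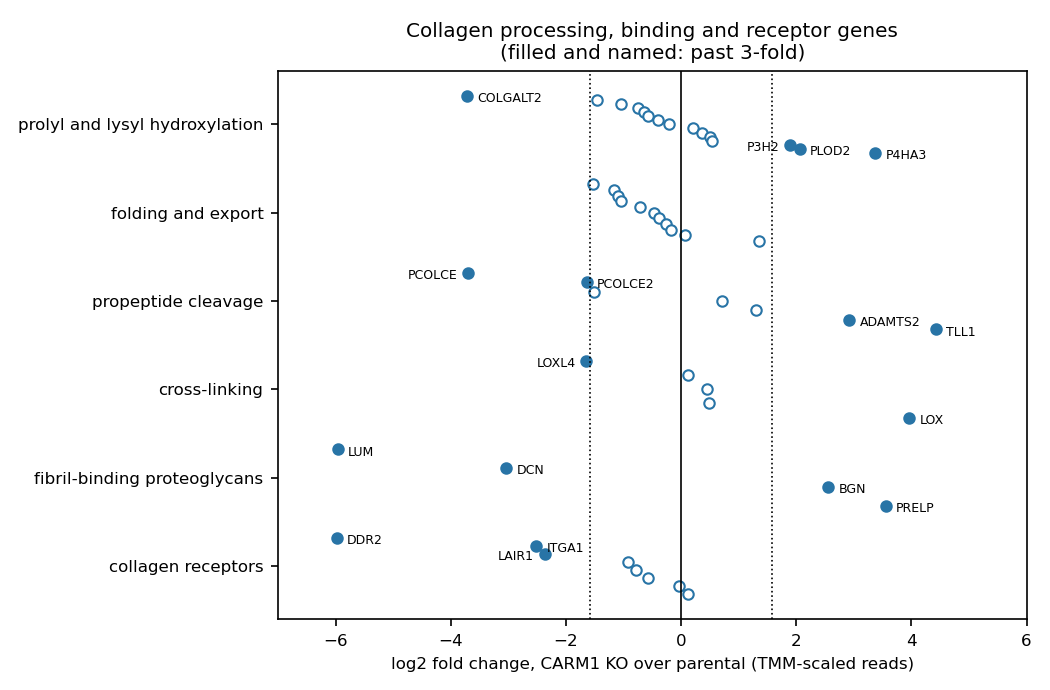
log2 fold change of CARM1 KO over parental (horizontal axis, TMM-scaled reads) for 50 tested genes that modify, export, cleave, cross-link, bind or sense collagen, in 6 lists, with dotted lines at 3-fold. Filled points with names were past 3-fold, with DDR2 and LUM the lowest and TLL1 and LOX the highest.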

How the data were processed

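Total RNA of 1 library per group was sequenced in paired reads. The authors aligned reads to hg19 with bowtie2, used RSEM to estimate read counts for Ensembl genes, and deposited them as raw whole numbers. RSEM versions differ between the sources, and whether strand was used in counting is not given in the sources used here. Symbols and lengths came from GENCODE lifted to GRCh37, which is hg19, and were found for 55501 of 57736 identifiers.

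Counts were scaled by TMM (edgeR 4.0.16, R 4.3.3). With 1 library in each group the quasi-likelihood model of edgeR has no residual degrees of freedom, so folds are descriptive, with exact Clopper-Pearson 95% intervals (scipy 1.17.1). A library at 0 reads was set to 3 reads. Levels per kb used merged exon length. Calls needed over 3-fold and 10 reads together. The functions were tested on simulated data.

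All tested members, all called genes of the lists, and a few set genes of the lists are named. The values of 1 marker gene are not reported here. Members, classes and lists were chosen with earlier results of these data known. Alternatives were other scalings (library size, DESeq2 1.42.0 size factors, upper quartile, protein-coding genes only), read minimums of 1 and 50, a 2-fold threshold, the near bound of the interval and other lengths. Promoter windows were RefSeq's in GRCh38.p14.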

Additional observations from a re-analysis of the deposited data

Results flagged for a closer look

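Of 10 genes with a collagen name that are not protein-coding, antisense RNAs, divergent transcripts and pseudogenes, 9 had 0 reads in both libraries. COL6A2-DT, a long non-coding RNA on the minus strand upstream of COL6A2 on chromosome 21 (47513178 to 47517444, GRCh37), had 0 reads in parental and 4 reads in the CARM1 KO library. It is listed because its count lies outside the protein-coding members and above the 3 reads that a count of 0 allows. With fewer than 10 reads in both libraries together it was not tested, so no difference between the libraries is shown.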

How the results depend on the processing

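Under the other scalings, 10 members were higher and 12 lower, as with TMM, and 0 of 136 single values changed their call or direction. With at least 50 reads together 10 were higher and 9 lower, and with the near bound of the interval past 3-fold 8 were higher and 8 lower, as COL9A2, COL17A1, COL24A1, COL4A5, COL9A1 and COL19A1 did not reach it. With a 2-fold threshold 16 were higher and 12 lower. The median log2 fold change of tested members ranged from 0.76 to 0.84 over the scalings and was 1.26 with at least 50 reads. With at least 1 read it was 1.12, which overstates the shift. In that set COL6A5 and COL6A6, with 1 read in parental and 0 reads in the CARM1 KO library, entered as 2.93-fold higher. This arose because only the 0 was set to 3 reads. CARM1 had a log2 fold change of -1.43 with library size only.

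Without division by length, the shares in parental and CARM1 KO cells were 75.8% and 5.17% for fibrillar, 4.06% and 41.1% for network, 1.57% and 22.2% for FACIT, 0.179% and 1.31% for transmembrane and 18.4% and 30.2% for other chains, so that network and not other chains came first in CARM1 KO cells. With the longest coding transcript as length, COL1A2 was 149 times COL1A1 in parental cells, COL4A2 was 1.53 and 1.39 times COL4A1 in parental and CARM1 KO cells, and COL4A5 was 4.19 times COL4A6 in parental cells. COL6A3 was 15.5 and 1.18 times COL6A1, which turned the order in CARM1 KO cells, and 5.66 and 0.321 times COL6A2. No paired analysis was possible because each group holds 1 library, and no library could be left out.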

Other observations

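Deep falls of abundant transcripts were not confined to collagens. Of 1206 genes with at least 5000 reads in parental cells, 17 were more than 500-fold lower in CARM1 KO cells, and 4 of these were the fibrillar chains COL1A2, COL3A1, COL5A2 and COL11A1. Others among them were PDGFRA, a growth factor receptor of mesenchymal cells, POSTN, a matrix protein that binds collagen, and ACTA2, smooth muscle actin. Both limits and the genes named were chosen after the values were seen, and genes with 0 reads in CARM1 KO cells were set to 3 reads.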
